A study of Homo sapiens with 8 samples.

Results

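COQ10A and COQ10B are paralogous human genes for mitochondrial coenzyme Q-binding proteins. They were examined in a study of where the transcription factor RFX7 sits on the genome of RPE-1, a widely used cell line from the pigmented epithelium of the human retina. Cells had received 10 µM Nutlin-3a, a small molecule that frees p53 from its inhibitor MDM2, or the solvent DMSO, for 24 h. Chromatin was immunoprecipitated with an RFX7 antibody and sequenced (ChIP-seq), with 2 ChIP samples and 2 input samples for each treatment. Each treatment was deposited as 1 peak list, so no value below belongs to a single replicate, no value has a replicate error, and the sequencing depth behind a peak is unknown.

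The peaks described are all those within 10 kb of the gene body of COQ10A or COQ10B in either list. There were 2 of them among 1790 listed peaks, 1 at COQ10A and 1 at COQ10B, and both were in the Nutlin-3a list (1234 peaks). The DMSO list (556 peaks) held 0. The genes were chosen by the peaks listed at them, that is, by values of this same list, so the presence of a peak, its position, width, fold enrichment and −log10 p are given as a description, with no test.

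Coenzyme Q (ubiquinone) is the lipid that carries electrons from the dehydrogenases of the inner mitochondrial membrane to the cytochrome bc1 complex, and its reduced form also acts as an antioxidant in membranes. COQ10 proteins have a START fold, a pocket that holds a lipid. They bind coenzyme Q and are needed for its use in respiration, and yeast cells that lack their single COQ10 gene respire poorly although they still make coenzyme Q. RFX proteins bind DNA through a winged-helix domain, and their classical target is the X-box, an inverted repeat of a short half-site.

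The reference sequence just upstream of the gene starts is shown for both genes because it carries the only match to the X-box half-site found in the start windows searched for each gene, which leave most of the COQ10B peak unsearched. Sequences are from RefSeq, build GRCh38.p14, on the plus strand, which is the coding strand of both genes. Capitals mark the half-site, sought as GTTGCCA or GTTGCTA on both strands. The COQ10A stretch is the part of the peak that lies before the gene (chr12:56266811-56266941), and its capitals read GTTGCCA on the other strand. The COQ10B stretch is the 250 bases before the second listed start of the gene (chr2:197453755-197454004), and ends 37 bp before the peak begins.
COQ10A: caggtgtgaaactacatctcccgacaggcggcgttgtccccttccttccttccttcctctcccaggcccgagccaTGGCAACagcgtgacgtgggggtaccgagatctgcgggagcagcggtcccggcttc
COQ10B: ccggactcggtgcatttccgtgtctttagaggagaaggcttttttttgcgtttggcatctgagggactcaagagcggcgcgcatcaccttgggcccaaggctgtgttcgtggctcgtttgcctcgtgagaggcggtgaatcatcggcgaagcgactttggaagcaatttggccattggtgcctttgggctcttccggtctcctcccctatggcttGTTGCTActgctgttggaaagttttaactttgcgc

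The COQ10A peak lay across the start of the gene. COQ10A occupies chr12:56266942-56270966, and the peak chr12:56266811-56267228, so that 131 of its 418 bp were before the gene and 287 bp inside it. The summit, the position of highest signal that the list gives for a peak, was at 56266891, 51 bp upstream of the first listed start. The second listed start lies 384 bp further along, outside the peak, and 435 bp from the summit. Measured from the middle of the peak rather than from its summit, the peak lay 77 bp downstream of the first start.

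The COQ10B peak lay entirely inside its gene, close to the second of its listed starts. COQ10B occupies chr2:197453552-197475310, and the peak chr2:197454042-197454197, with a width of 156 bp. Its summit, at 197454083, was 531 bp downstream of the first start and 78 bp downstream of the second, which lies 453 bp after the first. The middle of the peak was 114 bp downstream of the second start. The gene table gives no exons, so whether the peak is exonic or intronic was not determined.

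**Figure D1:**
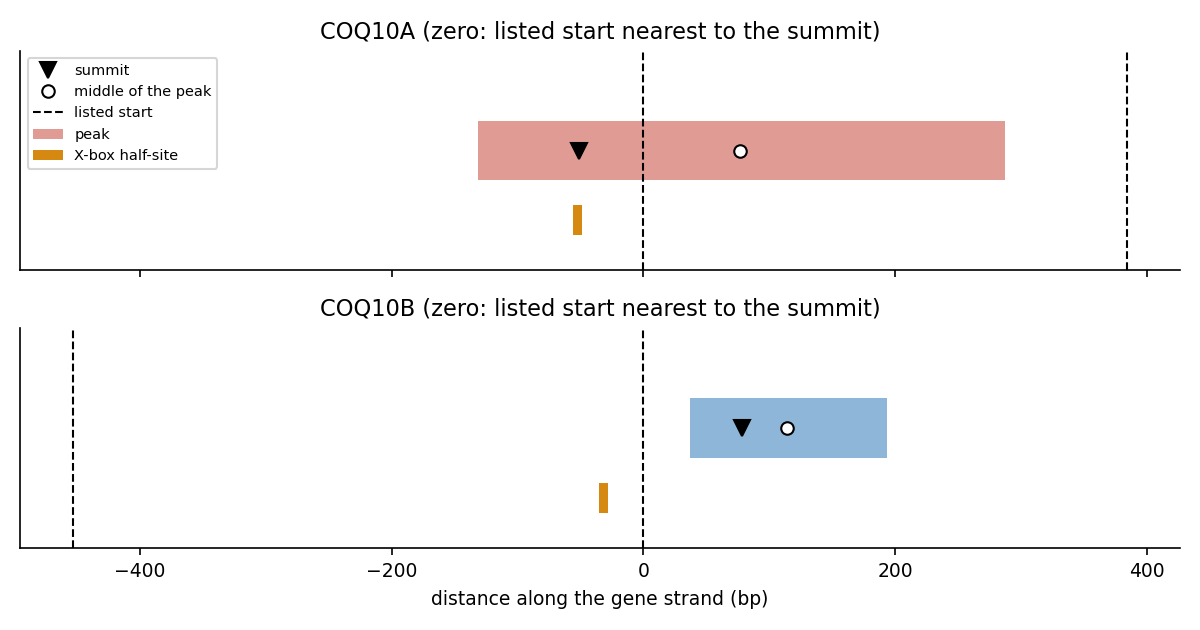
Position of the Nutlin-3a peaks at COQ10A (top) and COQ10B (bottom), in bp along the gene strand from the listed start nearest to the summit. Bars are the peaks (418 and 156 bp), triangles the summits (51 bp upstream and 78 bp downstream), open circles the middles, dashed lines the listed starts, and orange blocks the half-site matches, which lie inside the peak at COQ10A and outside it at COQ10B.

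Both distances are within the range of the other promoter peaks. In the Nutlin-3a list 103 of 1234 peaks had their summit within 1000 bp of a listed start of a protein-coding gene, 69 upstream of it and 34 at or downstream of it. The median distance over these was 133 bp, and 38 of them (36.9%), the COQ10A and COQ10B peaks included, were within 100 bp.

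**Figure D2:**
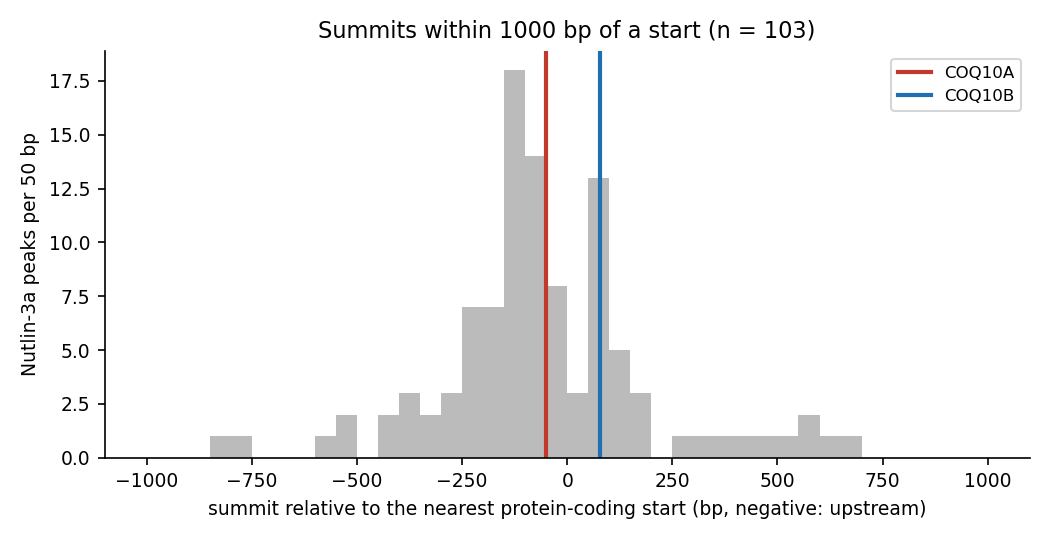
Histogram of the 103 Nutlin-3a summits within 1000 bp of a protein-coding start, by signed distance to the nearest start in bp (negative is upstream), in bins of 50 bp. The COQ10A summit (red line) falls on the larger, upstream side, and the COQ10B summit (blue line) on the downstream side.

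The COQ10A half-site lay at the summit of its peak. The 7 bases were at chr12:56266886-56266892, and their centre was 2 bp from the summit. They belong to a 14-base stretch, chr12:56266879-56266892, that matched the palindromic 14-letter X-box, GTTGCCA followed directly by its reverse complement, with 3 mismatches. All 3 mismatches lay outside the half-site. At COQ10B the half-site was at chr2:197453970-197453976, 29 to 35 bp upstream of the second start. It was outside the peak, with 65 bp between it and the first base of the peak, and its centre was 110 bp from the summit. No match to the 14-letter X-box with up to 3 mismatches was in either COQ10B window.

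The sequence available does not cover the peaks evenly. It consists of windows of 300 bases, from 250 before to 50 after each listed start, 2 for each of the genes. These held 334 of the 418 bases of the COQ10A peak (79.9%) but only 13 of the 156 bases of the COQ10B peak (8.33%), so the letters under the COQ10B summit were not searched. The other windows of both genes, at the second COQ10A start and the first COQ10B start, held no half-site.

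As a background, GTTGCCA occurred on either strand in 4.08% of 35116 such windows and GTTGCTA in 2.85%, and 6.75% held at least 1 of them. The 14-letter X-box contains GTTGCCA on both strands, so these searches overlap, and it occurred with up to 3 mismatches in 3.35% of windows. Windows of the same gene can overlap each other. Of the 130 windows that overlapped a Nutlin-3a peak, 36 (27.7%) held a half-site, GTTGCTA in 21.5% and GTTGCCA in 6.15%. The 14-letter X-box with up to 3 mismatches was in 11 of the 130 (8.46%). A match is a description of letters and not a measured binding site.

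The distance from half-site to summit at COQ10A was the shortest among the peaks that allow it to be measured. In the Nutlin-3a list 64 peaks had their summit inside a start window, and 20 of these had a half-site in that window. Their half-site centres lay 2 to 236 bp from the summit, with a median of 42.5 bp, and 6 of the 20 were within 20 bp. The COQ10B summit is in no window, so that peak is not among the 20.

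COQ10A had the stronger and wider peak. The fold enrichment, column 7 of the list, was 6.45 at COQ10A and 5.67 at COQ10B, a ratio of 1.14. The −log10 p, column 8, was 27.96 at COQ10A and 17.6 at COQ10B, a ratio of 1.59. The widths of 418 and 156 bp had a ratio of 2.68. The −log10 p is a logarithm, so its ratio cannot be ranked against those of fold enrichment and width. Between fold enrichment and width, the peaks differed more in width. With 1 list there is no replicate spread to compare these differences with.

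By fold enrichment both peaks were in the upper part of the Nutlin-3a list, and by −log10 p they were near its middle. COQ10A ranked 86 and COQ10B 126 of 1234 by fold enrichment, above 92.9% and 89.7% of the listed peaks. By −log10 p they ranked 536 and 744, above 56.5% and 39.7%. By width they ranked 135 and 664. The median peak of the list had 2.77-fold enrichment (interquartile range 1.94 to 3.90), a −log10 p of 23.8 (11.1 to 49.3) and a width of 161 bp (98 to 262 bp). Some peaks tied in fold enrichment: 2 other peaks had exactly the COQ10A value and 1 other exactly the COQ10B value. The 1234 peaks held 1103 distinct values.

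Both peaks stood apart from other listed peaks. Neither had another listed region of either treatment within 500 kb. The nearest other Nutlin-3a peak was 1.01 Mb from the COQ10A peak and 19.98 Mb from the COQ10B peak. Peaks with at least 5 other regions within 500 kb, called clustered here, made up 809 of the 1234. Among the other 425, COQ10A ranked 71 by fold enrichment and 116 by −log10 p, and COQ10B ranked 100 and 173. The interquartile range of these peaks was 3.24 to 5.44-fold, and their median −log10 p was 13.5. All 103 peaks with a summit within 1000 bp of a protein-coding start were outside clusters, so lying outside clusters was not particular to the COQ10 peaks. Outside clusters means fewer than 5 other regions, and some of the 103 did have another listed region within 500 kb.

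**Figure D3:**
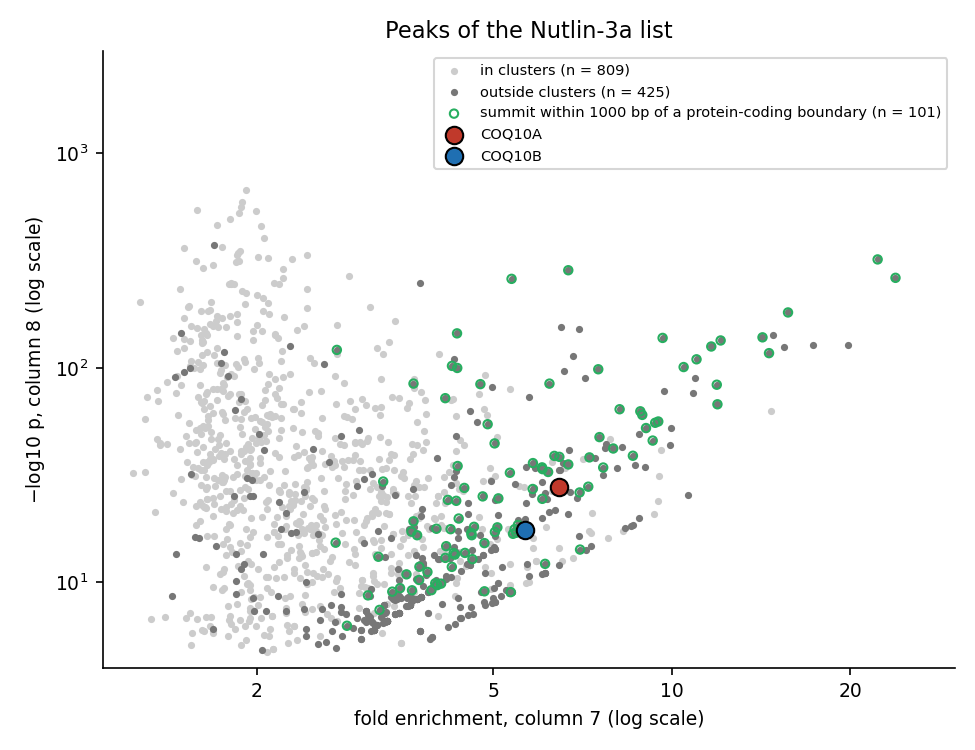
Fold enrichment against −log10 p for the 1234 Nutlin-3a peaks, both axes logarithmic, with clustered peaks in light grey, the others in dark grey and the 101 peaks at a protein-coding gene boundary ringed in green. COQ10A (red; 6.45, 27.96) and COQ10B (blue; 5.67, 17.6) lie among the ringed peaks, to the right of most clustered ones.

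Among peaks at gene ends the COQ10 peaks were of middling strength. The Nutlin-3a list held 101 peaks with a summit within 1000 bp of a boundary, the first or last base, of a protein-coding gene. Their median fold enrichment was 5.08 (interquartile range 4.17 to 7.23), with a −log10 p of 27.2 (14.8 to 60.3) and a width of 345 bp (214 to 549 bp). COQ10A ranked 32 by fold enrichment, 48 by −log10 p and 40 by width among them. COQ10B ranked 42, 66 and 92, so that its peak was among the narrower ones.

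The peaks most like those of COQ10A and COQ10B belonged to other genes, and the paralogues were not close to each other. Likeness was the straight-line distance over the log2 values of fold enrichment, −log10 p and width, across the 101 boundary peaks of this list. Nearest to COQ10A were the peaks at CCND1, the gene of cyclin D1 (distance 0.15; 5.83-fold, −log10 p 27.2, 412 bp), at TTC9C (0.18; 7.23-fold, 27.9, 400 bp) and at the kinase gene MARK3 (0.26; 6.19-fold, 32.7, 449 bp). The TTC9C peak is also within 1000 bp of HNRNPUL2. CCND1 had another boundary peak that was less like the COQ10A peak (1.79; 3.87-fold, −log10 p 11.2, 214 bp). Nearest to COQ10B were those at TFDP2, a dimerisation partner of E2F factors (0.33; 4.59-fold, 17.0, 168 bp), at the antiproliferative gene TOB2 (0.42; 4.24-fold, 17.7, 150 bp) and at PRKAR2A, a regulatory subunit of protein kinase A (0.46; 4.60-fold, 16.6, 198 bp). The distance between the COQ10A and COQ10B peaks was 1.58, and each was the 52nd of 100 in order of likeness to the other.

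No peak was listed near either gene in DMSO. The nearest DMSO peaks were 19.0 Mb from COQ10A (chr12:37266778-37266853, 1.74-fold, −log10 p 15.1) and 36.2 Mb from COQ10B (chr2:161279665-161279875, 2.30-fold, −log10 p 13.4). In the Nutlin-3a list, 1.35% of 20037 protein-coding genes had a peak within 10 kb of the gene body, and in the DMSO list 0.0649% did. With summits within 1000 bp of a gene boundary these shares were 0.569% and 0.00499%. Of the 101 boundary peaks of the Nutlin-3a list, 1 overlapped a DMSO peak, and it was at neither COQ10 gene. The lists give no signal where no peak was called, so the level of RFX7 at the COQ10 genes in DMSO is not known.

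The threshold of 10 kb decided nothing for these genes. The peaks inside it overlapped the genes, and the nearest Nutlin-3a peaks outside it were 1.01 Mb from COQ10A (chr12:57280343-57280576, 5.55-fold, −log10 p 17.3) and 19.96 Mb from COQ10B (chr2:217434081-217434338, 6.22-fold, −log10 p 21.2).

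At both loci the COQ10 start was the listed start nearest to the summit. To the left of COQ10A lies ANKRD52, which codes for a regulatory subunit of protein phosphatase 6. It is on the minus strand, and its nearest start was 8.51 kb from the summit. To the right lies CS, the gene of citrate synthase of the Krebs cycle, which begins 733 bp after the end of COQ10A on the reference. CS is on the minus strand, so that its near end is its 3′ end, 4.47 kb from the peak, and its nearest start was 33.4 kb from the summit. ANKRD52 and CS are the other genes with a body within 10 kb of the COQ10A peak, and it was the single Nutlin-3a peak within 10 kb of each.

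Further out, the next protein-coding genes beside COQ10A were SLC39A5, a zinc transporter gene, 28.97 kb from the peak, and NABP2, for a single-stranded DNA-binding protein, at 36.96 kb. On the other side they were CNPY2 at 42.6 kb and PAN2, for a subunit of a poly(A) nuclease, at 49.7 kb. None of these 4 genes had a peak of either list within 10 kb.

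COQ10B has more distant neighbours. The U6 pseudogene RNU6-1029P, 6.19 kb from the peak, was the other gene with a body within 10 kb. On the left SF3B1, a core component of the spliceosome, was 18.9 kb from the peak and has its nearest start, on the minus strand, 18.99 kb from the summit. ANKRD44 followed at 143 kb and PGAP1, an enzyme of GPI-anchor maturation, at 527 kb. On the right HSPD1 and HSPE1, which code for the mitochondrial chaperones Hsp60 and Hsp10, were 32.4 and 46.2 kb from the peak, with nearest starts 45.8 and 46.3 kb from the summit. The read-through gene HSPE1-MOB4 begins with HSPE1. None of these protein-coding neighbours had a peak of either list within 10 kb, so the chaperone genes had no RFX7 peak of their own.

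**Figure D4:**
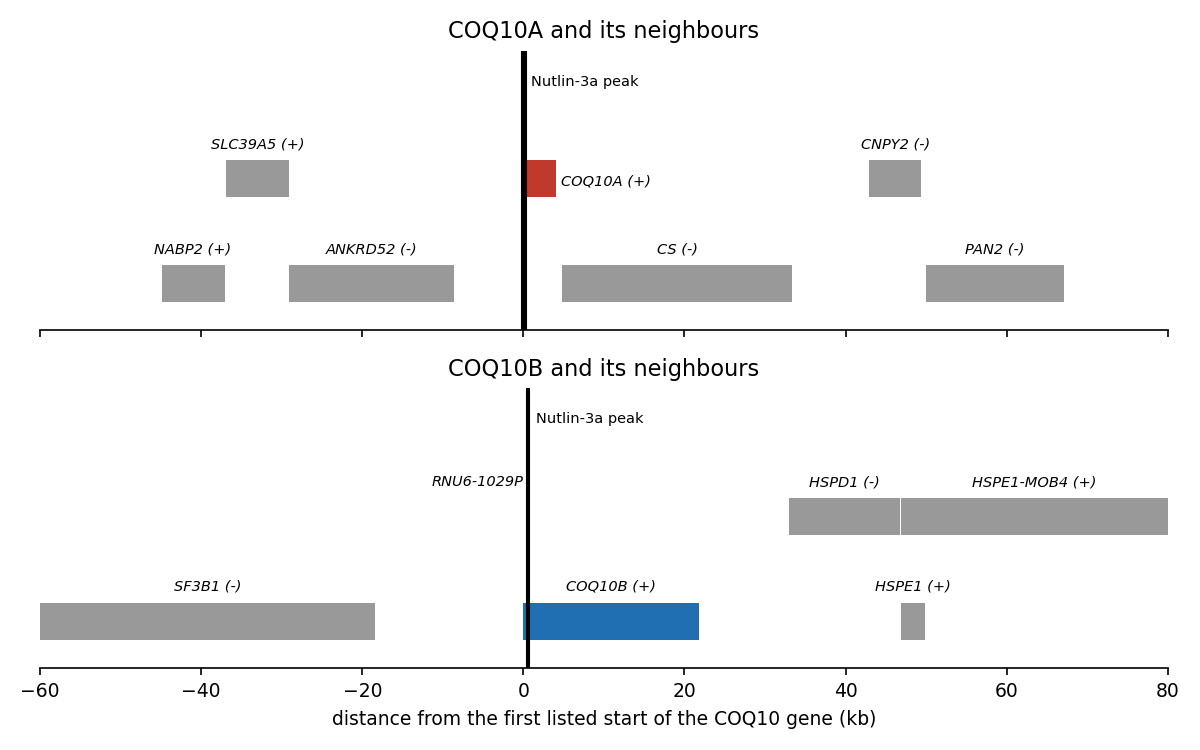
Gene bodies around COQ10A (top, red) and COQ10B (bottom, blue), in kb from the first listed start of the gene, with strand in brackets and neighbours in grey; bars of genes that run past the frame are cut at its edge. Black lines mark the Nutlin-3a peaks, which fall at the left end of both COQ10 genes, while CS, HSPD1 and HSPE1 lie to the right without a peak at their starts.

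Chosen lists of other coenzyme Q genes and of START domain genes held no gene with a peak within 10 kb. Of 15 genes of coenzyme Q synthesis (PDSS1 and PDSS2, which make its tail, COQ2 to COQ9, their ferredoxin partners and others) 0 had a Nutlin-3a or DMSO peak within 10 kb. Of 21 genes of enzymes that reduce or oxidise coenzyme Q, among them subunits of respiratory complexes I, II and III, DHODH of pyrimidine synthesis and the membrane antioxidant AIFM2, 0 had one. Of 15 genes of other START domain proteins, among them the lipid carriers STAR and CERT1, 0 had one. With 1.35% of all protein-coding genes called in the Nutlin-3a list, a count of 0 among 51 genes does not set these lists apart from other genes.

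The gene of each list nearest to a Nutlin-3a peak was FDX2, a mitochondrial ferredoxin, at 253 kb among the synthesis genes, UQCRC1, a subunit of the cytochrome bc1 complex, at 107 kb among the enzymes, and DLC1 at 352 kb among the START genes. These genes were named after their distances were seen. The median distance to a Nutlin-3a peak was 2.91 Mb for the synthesis genes, 3.58 Mb for the enzymes and 3.11 Mb for the START genes, beside 2.53 Mb for all protein-coding genes.

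**Figure D5:**
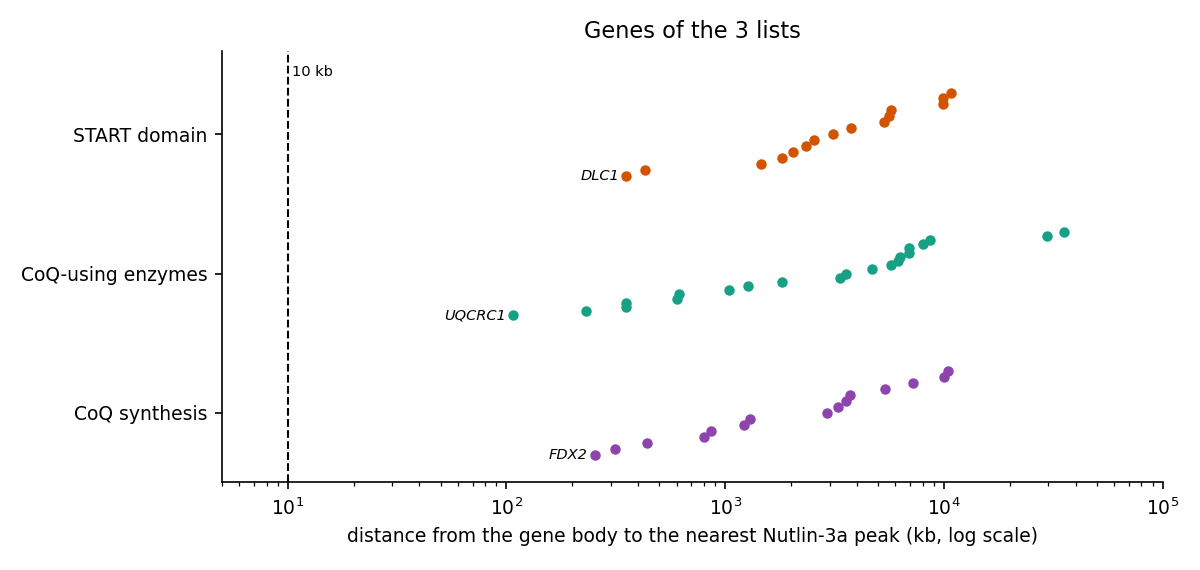
Distance from the gene body to the nearest Nutlin-3a peak, in kb on a logarithmic axis, for each gene of the 3 lists (points, spread vertically for clarity), with the 10 kb limit dashed and the nearest gene of each list named. All points lie to the right of 100 kb, whereas the COQ10A and COQ10B peaks overlap their genes.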

How the data were processed

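The authors deposited 1 narrowPeak list per treatment. Per the submitters' processing notes, the build was hg38 and the tools included MACS2 2.2.7.1 and bedtools 2.29.2; how replicates and inputs were combined is not given in the sources used here. In the deposited lists column 5 is a score (not used), column 7 a fold enrichment, a ratio to a background that is not stated, columns 8 and 9 are −log10 p-values and q-values, and column 10 is the summit offset. Starts were shifted by 1 so that positions count from 1. Gene bodies came from a RefSeq table (GRCh38.p14, 59679 genes), starts, strands and sequences from a RefSeq table of start windows. Distances and motif searches used Python 3.11.15 with pandas 2.3.3 and were tested on simulated peaks and motifs.

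No test was run, because a treatment has 1 list and the genes were chosen by their peaks. The genes and lists were chosen with earlier results of these data known. Named genes are both paralogues, genes within 10 kb of their peaks, 3 protein-coding neighbours per side, genes of the 3 lists with a peak within 10 kb, the 3 boundary peaks most like each paralogue's, and the peaks just beyond 10 kb. Genes outside this rule are named as examples of a list's content, or were chosen after their values were seen (the nearest gene of each list, and the genes under other observations). Alternatives changed distance, q-value, overlap rule, summit, strength measure and motif. Protein sequences were not compared here.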

Additional observations from a re-analysis of the deposited data

How the results depend on the processing

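No paired analysis was possible because the replicates of a treatment share a single deposited list, which also means that no replicate could be left out. Of 48 alternatives 37 left the value as it was or within its limit. The count of 2 Nutlin-3a peaks and 0 DMSO peaks held with distances of 1, 5 and 50 kb, with −log10 q of at least 5 and with summits in place of whole peaks, and the list genes stayed at 0 under these distances and that q-value. A count of 0 within 10 kb cannot rise at 1 or 5 kb, with the q-value limit or with summits. At 50 kb it could not rise either. The nearest DMSO peaks were 19.0 and 36.2 Mb from the COQ10 genes. The nearest list gene was 107 kb from a Nutlin-3a peak and 1679 kb from a DMSO peak. The count of 2 was also fixed, since both peaks overlapped their genes and had −log10 q of 23.2 and 13.1. Their summits were inside the gene or 51 bp from it, and the next Nutlin-3a peaks were 1.01 and 19.96 Mb away. None of these counts could change, so their stability is no check. The COQ10 peaks stayed unshared with DMSO under both other overlap rules, 50% overlap and summits within 100 bp. Neither rule could give another result, since the nearest DMSO peaks were 19.0 and 36.2 Mb from the genes. The COQ10A to COQ10B log2 ratio was 0.19 by fold enrichment, 0.67 by −log10 p and 1.42 by width. The share of Nutlin-3a peaks below COQ10A was 83.1% among peaks outside clusters, 91.1% among those with −log10 q from 5 upwards and 56.5% by −log10 p, and below COQ10B 76.2%, 87.2% and 39.7%. With the peak middle as the reference point, COQ10A changed from −51 to 77 bp from its start, and COQ10B moved from 78 to 114 bp. With the 14-letter X-box, COQ10B had 0 matches in place of 1. These alternatives measure other quantities or other peaks, and the cause of the changes was not tested. Unknown depth limits any reading of the missing DMSO peaks.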

Other observations

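Beside COQ10A, 5 Nutlin-3a peaks with the summit inside a start window had a half-site of that window within 20 bp of the summit. The windows were those of DEDD2, a death effector domain gene (6 bp), the non-coding gene LOC105371573 (7 bp), the protein-coding locus LOC124903762 (16 bp), YPEL2 (18 bp) and RCL1, for a ribosomal RNA processing protein (19 bp). The peak at DEDD2 was also 72 bp from a start of ZNF526, and the peak at LOC124903762 also lay within 1000 bp of a boundary of TAOK2 and TMEM219. These genes were chosen after their values were seen, and no test was run.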
